A study of Mus musculus with 2 samples.

Results

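By number of listed peaks at the joining distance used here, the largest group of TBX5 peaks in the adult mouse ventricle lay on chromosome 11, in a window set around Tcap and its neighbours. It did not lead when peaks were joined over a longer distance, merged, limited to a higher −log10 q or ranked by summed fragments. The peaks described here are those of the deposited TBX5 list whose summit falls on chromosome 11 between 98.20 and 98.29 Mb of the mouse build mm9. The window held 13 of the 8849 listed peaks, and 12 of them formed a single group. The widest gap inside the group was 4.89 kb and the 13th peak began 16.9 kb after it, so any joining distance between these gives the same 12. Groups elsewhere in the list were joined at 1 main distance within this range, which underlies the group counts and ranks below unless another is named. The list was also joined at 5 kb, which lies within the range too, and the group again had 12 peaks and rank 1. That was fixed in advance, because the shorter distance leaves this group whole and can only split the others. The window was chosen because this group has the most peaks of the list at the main distance. Its number of peaks and every value taken from the same comparison of TBX5 with its control are therefore given as a description, without a test.

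Chromatin came from cardiac ventricles of wild-type C57BL/6 mice aged 15 weeks that had received no treatment. It was fixed with formaldehyde, sheared by sonication and immunoprecipitated either with an antibody to TBX5 (anti-TBX5, HPA008786) or with rabbit IgG, the study's control for unspecific pull-down, and the DNA was sequenced (ChIP-seq). Per the design text, each antibody had 2 biological replicates. The values below come from 1 merged TBX5 list, so no spread between replicates stands behind them, and values of single replicates and of the IgG sample were not analysed here. Whole ventricle holds cardiomyocytes and other cells, and a peak list does not tell in which of them a site was bound. A peak list gives no expression either, so the tissue label was not checked against marker genes.

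TBX5 belongs to the T-box transcription factors, which bind DNA through a conserved T-box domain, and in the heart it is required for chamber formation and for the conduction system. Tcap encodes telethonin, also named titin cap, a small protein of the sarcomere's Z-disc that ties together the ends of neighbouring titin molecules in striated muscle. Its neighbours have other roles. Ppp1r1b encodes DARPP-32, an inhibitor of protein phosphatase 1 best known from dopamine signalling in the brain. Stard3 encodes a cholesterol-binding protein of late endosomes. Pnmt encodes the enzyme that turns noradrenaline into adrenaline. Pgap3 encodes an enzyme that remodels the lipid of GPI anchors.

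In the RefSeq gene table of assembly GRCm38.p6 these are 5 successive protein-coding genes in the order Ppp1r1b, Stard3, Tcap, Pnmt and Pgap3, with Gm33099 before them and Erbb2, a receptor tyrosine kinase gene, after them. The peaks are on another build. No peak was therefore assigned to a promoter, intron or exon of any of the genes, and the tie between the window and Tcap is that of the window's definition. The promoter table had an entry for 2 of the 5 genes. The 250 bases before their annotated starts are shown because they are reference sequence of genes in the window, and they carry the letters on which the motif search below rests. They are RefSeq sequence of GRCm38.p6, 5′ to 3′ on the gene's own strand, and capitals mark every match to a searched motif.
Stard3, chr11:98358118-98358367 of GRCm38.p6, plus strand: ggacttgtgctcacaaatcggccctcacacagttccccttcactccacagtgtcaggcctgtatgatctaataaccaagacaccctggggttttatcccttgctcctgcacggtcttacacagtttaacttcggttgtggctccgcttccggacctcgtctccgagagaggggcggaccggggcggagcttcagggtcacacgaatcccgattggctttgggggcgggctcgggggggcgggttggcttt
Pgap3, chr11:98400491-98400740 of GRCm38.p6, minus strand: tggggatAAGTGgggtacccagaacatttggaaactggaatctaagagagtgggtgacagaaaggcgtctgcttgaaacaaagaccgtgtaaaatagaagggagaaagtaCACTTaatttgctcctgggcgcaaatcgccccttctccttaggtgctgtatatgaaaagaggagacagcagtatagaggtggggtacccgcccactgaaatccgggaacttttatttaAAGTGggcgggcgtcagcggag

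The Pgap3 window held 3 matches to the NKX2-5 core AAGTG, counting both strands, at 243, 140 and 22 bases before the start. This core lay in 40.7% of all 32851 promoter windows of the same length, so a match is common. The T-box core GGTGTGA was in neither of the 2 windows and in 3.33% of all windows. The core of GATA factors, AGATAA, was likewise in neither of them and in 9.99% of all windows. Nor did either hold the core of TEAD factors, GGAATG, which lay in 12.6% of all windows, or the E-box CAGCTG of basic helix-loop-helix factors, which lay in 13.0% of them. The MEF2 motif was in neither of the 2 windows and in 3.20% of all windows. All motifs were searched on both strands, and no searched motif overlapped another in these 2 windows. A window without a match lacks only these letters, and the TBX5 peaks themselves could not be searched.

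Of the 13 peaks, 2 were strong and 11 were weak, and the strong ones stood near the ends of the group, 20.0 kb apart, with 9 weak peaks between them. The strongest, the 11th in order along the chromosome, ran from 98255568 to 98256061. Its summit held 102 TBX5 fragments (95% Poisson interval 83.2 to 124), or 80.2 when scaled to the control. The local control level was 5 fragments per position and the deposited fold 13.5. Fragment counts in the text are unscaled, whereas folds and TBX5-to-control ratios use the scaled value. It was also the widest of the 13, at 494 bp. The fold is the authors' value at the summit, taken over the highest of several local averages of a control library, which no label or processing note at hand names. The fragments and control levels were solved from the authors' fold and −log10 p, and intervals cover counting error only.

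The second strong peak was the first of the group and ran from 98235651 to 98235896. Its summit held 81 TBX5 fragments (64.3 to 101) with a control level of 4 and a fold of 12.9. The fragment intervals of the 2 strong peaks overlapped, so their order is not settled by counting. With the control level held fixed, counting error put the fold of the 11th peak between 11.1 and 16.4 and that of the first between 10.3 and 16.0. The control levels rest on few reads. With the counting error of both libraries, the plain TBX5-to-control ratio was 16.0 at the 11th peak (exact 95% interval 6.66 to 50.5) and 15.9 at the first (5.99 to 59.9).

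These 2 peaks were high in the list but not among its extremes. The 11th peak ranked 331st by score and the first 520th. The list held 291 peaks with more TBX5 fragments than the 11th peak, 15 of them on chromosome 11, and 566 peaks with a higher fold. Of the 13 peaks, 2 had a fold of at least 10, against 13.7% of the whole list, a share near that of the list.

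**Figure D1:**
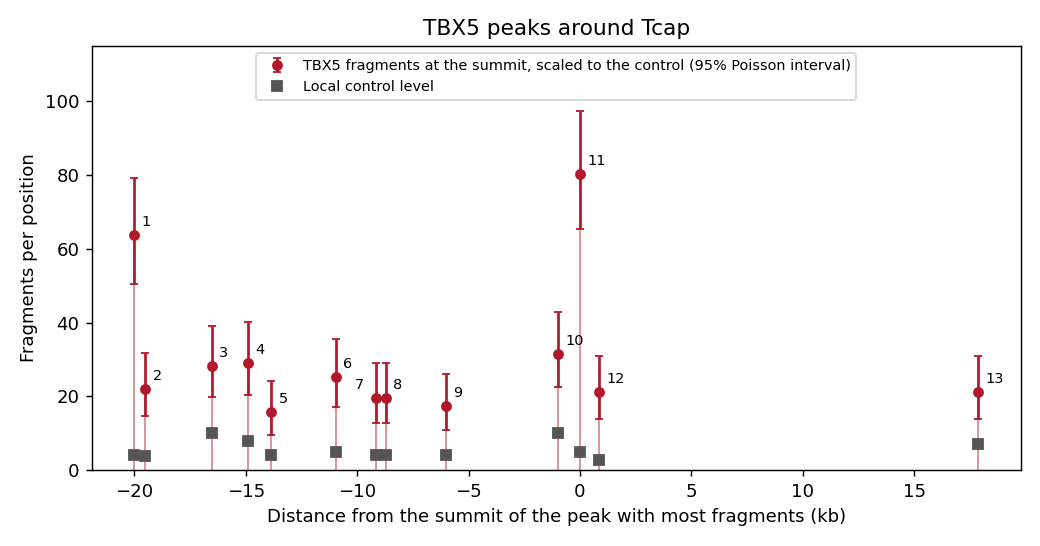
TBX5 fragments at each summit, scaled to the control library (circles, 95% Poisson interval), and the local control level (squares), both in fragments per position, against the distance in kb from the summit of the 11th peak, which has the most fragments. The numbers count the 13 peaks along chromosome 11. The 2 tall peaks stand 20.0 kb apart, and the 13th lies 17.9 kb beyond the 11th.

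Each strong peak had a weaker one close behind it, on the side of higher coordinates. The second peak, from 98236254 to 98236406, began 357 bp after the end of the first and held 28 fragments (18.6 to 40.5), a fold of 4.72. The 12th peak, from 98256342 to 98256720, began 280 bp after the 11th and held 27 fragments (17.8 to 39.3), with the highest fold of the weak peaks, 5.76. Its interval reached from 3.88 to 8.26 and so included the folds of 4 other weak peaks. The 11th peak also had a neighbour on its other side, the 10th, from 98254734 to 98254909, which ended 658 bp before it. That peak had the most fragments of the weak ones, 40 (28.6 to 54.5), but stood over a control level of 10, which left its fold at 2.95.

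The weak peaks between the 2 ends were spread over the whole stretch. The third, from 98239179 to 98239471, held 36 fragments (25.2 to 49.8) and had a control level of 10 and the lowest fold of the 13, 2.67. The next, the 4th, from 98240712 to 98240986, held 37 fragments (26.1 to 51.0) with a control level of 8 and a fold of 3.34. These 2 and the 10th were the weak peaks with most fragments, and they also had the 3 highest control levels of the window. The 5th, from 98241831 to 98241958, was the shallowest and narrowest, with 20 fragments (12.2 to 30.9) with a control level of 4, a fold of 3.35 and a width of 128 bp. The narrowest peak of the whole list measured 125 bp.

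The middle of the group held 4 peaks of like height. The sixth, from 98244770 to 98245060, had 32 fragments (21.9 to 45.2) with a control level of 5 and a fold of 4.36. The seventh, from 98246543 to 98246781, and the eighth, from 98246994 to 98247162, each had 25 fragments (16.2 to 36.9) with a control level of 4 and the same deposited fold, 4.13. They lay 212 bp apart with summits 0.442 kb apart, the closest pair of the window. In the whole list of 8849 peaks, 24 pairs of adjacent peaks shared both fold and −log10 p. The ninth, from 98249610 to 98249848, had 22 fragments (13.8 to 33.3) with a control level of 4 and a fold of 3.66.

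The 13th peak stood apart from the group. It ran from 98273592 to 98273733, 16.9 kb after the end of the 12th, and held 27 fragments (17.8 to 39.3) with a control level of 7 and a fold of 2.78. It lay between the third and the 10th in fold, and all 11 weak peaks had fold intervals that overlapped that of at least 1 neighbour in the order of folds. With the control level held fixed, the fold intervals of the 2 strong peaks overlapped none of the weak ones. That separation did not hold once the counting error of both libraries was included. The TBX5-to-control ratio intervals of all weak peaks then reached above the lower bound of the first peak, 5.99. All weak peaks but the third also reached above the lower bound of the 11th, 6.66.

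**Figure D2:**
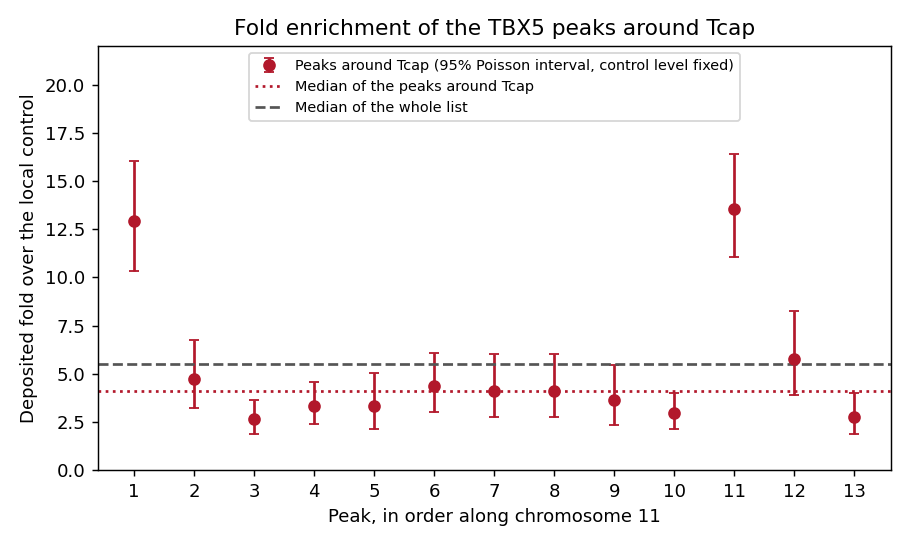
Deposited fold over the local control at each of the 13 peaks, in order along chromosome 11, with 95% Poisson intervals that hold the control level fixed. The dotted line is the median of the 13 peaks, 4.13, and the dashed line that of the whole list, 5.52. The first and 11th peaks stand above both lines, and 10 of the other 11 peaks have a fold below the list median.

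The weak peaks reached from near the threshold of the list up to its middle. The 5th had the lowest −log10 q of the window, 2.19, where the list ended at 1.30, and the 12th had the highest of the 11 weak peaks, 8.52. A −log10 q of 5 or more was reached by 6 of the 13 peaks, against 71.7% of the whole list. These 6 were 1st, 2nd, 4th, 6th, 11th and 12th along the chromosome. The median −log10 q was 4.59 in the window and 8.15 in the list, and the median fold was 4.13 in the window and 5.52 in the list. With the counting error of both libraries the plain ratio of TBX5 to control still had a lower bound above 1 at all 13 peaks. The lowest of these bounds, 1.29, was at the 13th peak, and the next, 1.32, was at the 5th. A site enters the list only by passing a threshold over its control, so bounds above 1 are partly set by that selection.

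The window differed less from the list in TBX5 fragments than in −log10 q. The median was 28 TBX5 fragments in the window (range 20 to 102) and 32 in the list (9 to 230), and the median width was 239 bp in the window and 202 bp in the list. The control level had a median of 4 in the window (2.86 to 10), 3.5 in the list and 4 over all 569 peaks of chromosome 11. It lay above the genome background of 1.18 at all 13 peaks, against 91.4% of the list, and it reached 10 at 2 of them, the third and the 10th, against 7.38% of the list. The part that the control level plays in the lower folds of the window was not tested.

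The control reads around the group could be read off at 2 peaks where an average over a longer stretch set the level. At the 12th peak the level of 2.86 was the average over 10 kb, which corresponds to 229 control reads there, against 94.0 at the genome background. At the second peak the level of 3.88 was the average over 1 kb, which corresponds to 31 control reads, against 9.40 at the background. The other 11 levels were whole numbers, as the reads at the summit itself give, although an average over 1 kb can fall on a whole number too. The caller takes the highest of these averages, which favours high values, so the 2 counts show the control near these summits and not the average over the group.

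**Figure D3:**
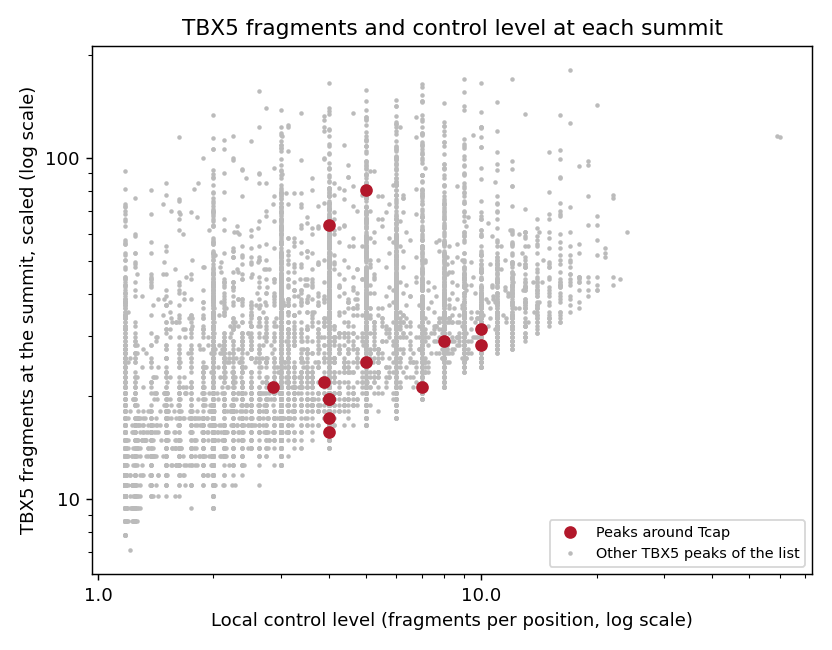
TBX5 fragments at each summit, scaled to the control library, against the local control level, both in fragments per position on log scales, for the 13 peaks around Tcap (large circles) and the other peaks of the list (dots). The first and 11th peaks stand well above the lower edge of the cloud, where the threshold of the list lies, and 7 of the other 11, those with a −log10 q under 5, lie along that edge. The 7th and 8th peaks coincide.

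The group from the first to the 12th peak spanned 21.1 kb, from 98235651 to 98256720. Its peaks covered 14.6% of that length, with a median of 1.62 kb between neighbouring summits (range 0.442 to 5.04 kb over 11 gaps). In 5 of the 11 gaps the next peak began less than 1 kb after the previous one ended. The summits held 475 TBX5 fragments in all, 183 in the 2 strong peaks and 292 in the other 10. After subtraction of the control level, the 2 strong peaks held 43.7% of the scaled fragments. The caller's peak numbers ran on without a gap from the first to the 13th peak, so no numbered peak is missing between them.

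The window stood alone on its stretch of chromosome 11. The nearest peak before it ran from 97951956 to 97952189, with its summit 283.7 kb before that of the first peak, and held 23 fragments (14.6 to 34.5), a fold of 3.18. The nearest peak after it ran from 98582665 to 98583041, with its summit 309 kb after that of the 13th, and held 76 fragments (59.9 to 95.1), a fold of 8.68. Both lay far outside the edges of the window, so its exact limits did not decide which peaks were counted.

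Among the 10 groups of 8 or more peaks in the list, the Tcap group had the most peaks and the most per kb, 0.570, but not the strongest ones. The next in number, on chromosome 5 from 23826388 to 23858685, had 11 peaks over 32.3 kb, or 0.341 per kb, and its highest fold was 14.9. A group of 9 on chromosome 1 from 74045165 to 74064653 was the only one of the 10 that was shorter than the Tcap group, at 19.5 kb, and had a highest fold of 7.79. Among all 374 groups of 3 or more peaks the Tcap group ranked 70th by peaks per kb. By highest fold it ranked 7th of the 10 large groups and by median fold 9th. By the share of its peaks with a −log10 q of 5 or more, 6 of 12, it ranked 8th, together with groups on chromosomes 2 and 5 that had 4 of 8 each. The share of control-subtracted fragments in the 2 strongest peaks ranked 6th. The groups held 8 to 12 peaks, and 2 peaks are a smaller part of a larger group. This rank therefore does not tell whether the pattern of 2 strong peaks among weak ones was unusual. These ranks describe groups that were chosen by their number of peaks.

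The lead in number depended on how peaks were counted and joined. With peaks up to 25 kb apart joined, the Tcap group had 13 peaks and ranked 4th, as 1 of 2 groups with that number. The largest group of the list had 15. With peaks under 1 kb apart merged, the Tcap group had 7 regions, against 8 in the chromosome 5 group and 9 in a group on chromosome 6 from 101257924 to 101324949. At a −log10 q of 5 or more it had 6 peaks and the chromosome 5 group 8. At or above the median score of the list it had 3 peaks and the chromosome 5 group 6. By summed TBX5 fragments the Tcap group, with 475, ranked 5th of all groups in the list.

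**Figure D4:**
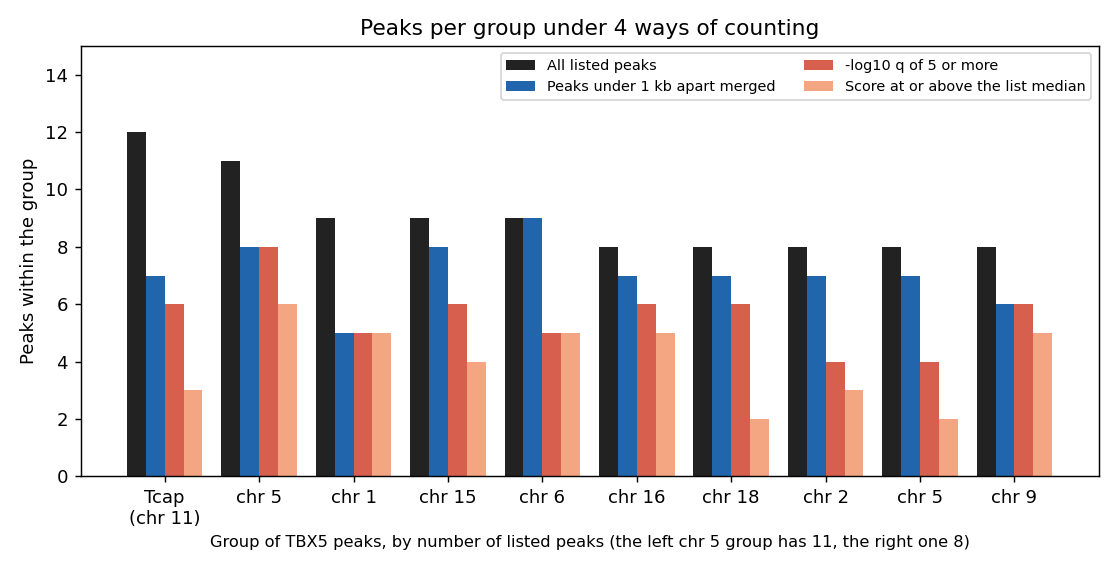
Number of peaks in each of the 10 groups of 8 or more listed peaks, counted 4 ways (bars): all listed peaks, peaks under 1 kb apart merged, peaks with a −log10 q of 5 or more, and peaks at or above the median score of the list. The Tcap group, at the left, has 12, 7, 6 and 3 peaks, and leads in the first count alone.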

How the data were processed

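The submitters' processing notes name mm9, Bowtie2 (version 2.2.6.2), FastQC (0.10.0) and, as the peak caller, MACS2 (2.1.1.20160309.0). No label gives the caller's settings or control library, or how the replicates were merged. The deposited narrowPeak list holds, for each peak, the authors' fold (a ratio at the summit), their −log10 p, their −log10 q and a score that is the whole part of 10 times −log10 q in 8846 of 8849 peaks. Coordinates count from 1.

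TBX5 fragments and control level were solved together from the fold, (scaled pileup + 1) / (control level + 1), and the upper Poisson tail behind −log10 p. With a scale of 0.787, all 8849 peaks had a whole number of fragments (tolerance 0.002). For 130 peaks, none in the window, another solution was as close. The solving was tested on simulated data. TBX5-to-control ratios have exact (Clopper-Pearson) intervals. Intervals treat reads as independent molecules, which reads without identifiers are not, and the libraries' depth is not in the list.

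All 13 peaks and all 5 genes of the window are named. They and the gene lists were chosen with earlier results of these data known. The software was Python 3.11.15 with scipy 1.17.1, pandas 2.3.3, numpy 2.4.6 and, for figures, matplotlib 3.10.9.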

Additional observations from a re-analysis of the deposited data

How the results depend on the processing

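Of 18 alternatives, 6 stayed within limits (a factor of 1.5 for counts and ranks, the 95% counting interval for medians and shares) and 12 did not. The window held 6 peaks at a −log10 q of 5 or more, 3 at or above the median score and 8 with peaks under 1 kb apart merged. Its largest group held 6 peaks at that −log10 q and 7 after merging, an alternative added after the values were seen. By number of peaks the group had rank 4 at a stitching distance of 25 kb, rank 4 at that −log10 q and rank 4 after merging. The Tcap group shared these ranks, as 1 of 2 groups at 25 kb, 1 of 9 at that −log10 q and 1 of 6 after merging. It had rank 5 by summed fragments and, by peaks per kb, rank 70 of 374 groups of 3 or more. At 5 kb it kept 12 peaks and rank 1, both counted as within limits. Both were fixed in advance, because the shorter distance leaves this group whole and can only split the others. The share of promoters with the T-box motif was 1.12% for AGGTGTGA and 16.3% for GGTGTG. The direction of the moves in counts and motif shares follows from the alternatives' construction. The ranks other than that at 5 kb were not fixed by it. In a merged list no replicate could be left out. No paired analysis was possible because the values of both replicates stand in 1 list. Sites under the q threshold are not in the list.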

Other observations

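A list of 12 genes of the Z-disc and of partners of telethonin, chosen with earlier results of these data known, was searched in the same promoter windows, and 10 of them had an entry. The T-box core GGTGTGA was in 1 of the 10, that of Ankrd1, a stress-responsive gene of the sarcomere, against 3.33% of all windows. The longer letters AGGTGTGA were in 0 of the 10, against 1.12% of all windows, and the shorter GGTGTG in 1, again Ankrd1, against 16.3%. The NKX2-5 core AAGTG was in 3 of the 10, those of Cmya5, Csrp3 and Myoz2, against 40.7% of all windows. The GATA letters AGATAA were in 4 of the 10, those of Ankrd1, Cmya5, Fhl2 and Nebl, against 9.99% of all windows. The MEF2 motif was in 2 of the 10, those of Myoz2 and Ttn, against 3.20%. The TEAD letters GGAATG were in 3, those of Ankrd1, Nebl and Trim63, against 12.6%, and the E-box CAGCTG in 2, those of Myoz2 and Trim63, against 13.0%. These are matches of letters in 250 bases, given as counts, and whether TBX5 was bound at any of these genes was not analysed here.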
